A study of Mus musculus with 14 samples.

Results

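Gene expression was compared between the ventricles of 5 GX mice that had received MRL5 and 4 GX mice that had received DMSO, 9 of the 14 RNA-seq libraries of the study. All 9 mice were male, both alleles of each carried the GX change (genotype GX/GX), and the heart ventricle was taken 4 hours after an intraperitoneal injection. MRL5 is a compound known here by its code name, described in the design text as an inhibitor of the channel that the GX change alters, and DMSO is its vehicle. The samples in the comparison were all libraries labelled GX with MRL5 and all labelled GX with DMSO, and the labels give each library a mouse of its own. Where the labels name 5 GX mice with MRL5, the design text counts 4, and all 5 were used. Dose, age, strain and the way the GX allele was made are not given in the sources used here, and no untreated GX mouse enters the comparison. Libraries are called GX MRL5 1 to 5 and GX DMSO 1 to 4 below, and where values follow each other they stand in that order. The 5 wild type libraries of the study, 2 with MRL5 and 3 with DMSO, enter only the estimate of spread.

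Voltage-gated sodium channels open at the start of the action potential and carry the inward current by which excitation spreads through the ventricle. Their block slows conduction and lowers excitability. Ventricular tissue answers injury, stretch or circulating cytokines within hours by transcribing immediate early genes, chemokines and acute phase genes, and stress hormones act on it through the glucocorticoid receptor. The comparison asks which transcripts differ after a single exposure to MRL5 in hearts of GX mice.

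Expression was deposited as scaled reads per base, a signal that is not a count, and the depth of the libraries is unknown. Of 14161 genes, 14152 had a value of at least 1 in at least 2 of the 9 GX libraries and were tested with limma on log2(value + 1). A fold change is therefore on that scale and understates the change of genes with low values. With Benjamini-Hochberg adjustment, 0 of 14152 genes (0%) passed at 0.05, and the smallest adjusted p was 0.972. At an unadjusted p under 0.05 there were 585 genes, 4.13% of those tested, of which 384 (2.71%) were higher and 201 (1.42%) lower with MRL5. The 4.13% lies under the share of 0.05 that such a threshold passes when no gene differs. The groups did not overlap in 156 genes (1.1%): all treated mice lay above all vehicle mice in 101 (0.714%) and below in 55 (0.389%). Small groups also separate in some genes when none differs. A lack of overlap in a gene named below is therefore a description and not evidence of an effect. A positive log2 fold change was found for 51.5% of the genes, and the median over all genes was 0.0055. A log2 fold change above 1 was found for 135 genes (0.954%) and one below -1 for 60 (0.424%). No gene named below passed the adjusted test, and each is described by its values. The split by direction moved with the scaling: with column sums made equal, 385 genes were higher and 90 lower at an unadjusted p under 0.05, so that 81.1% were higher, against 65.6% with the values as deposited and 60.2% with median ratios. With equal sums the median of all genes was 0.034.

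**Figure D1:**
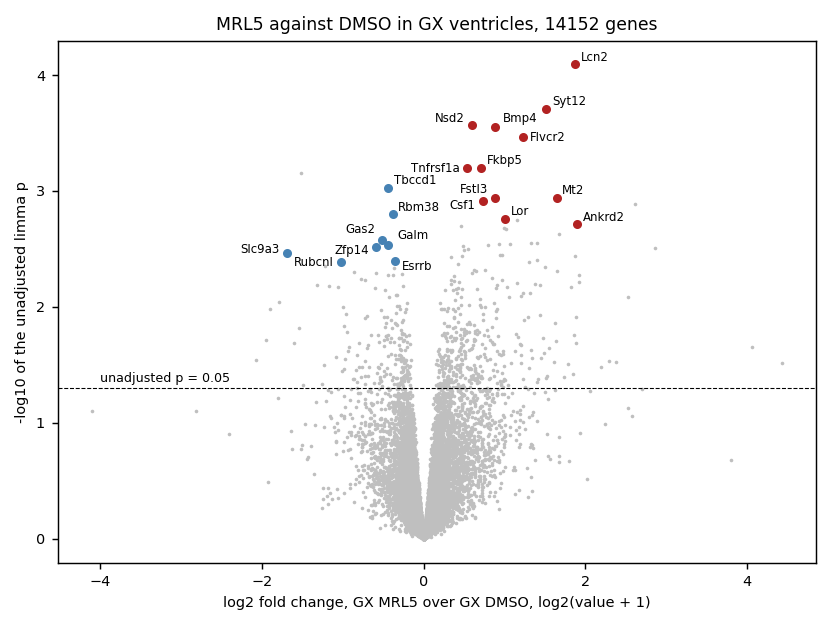
Log2 fold change of GX MRL5 over GX DMSO (x axis, on the log2(value + 1) scale) against -log10 of the unadjusted limma p (y axis) for 14152 genes, with the 12 genes of smallest p among those higher (red) and the 8 among those lower (blue) named, predicted genes left unnamed. Lcn2 stands highest at a log2 fold change of 1.87, and no gene passed after adjustment.

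A few libraries stood apart from the others. Across genes with a mean of at least 10, GX MRL5 3 lay over 1 log2 unit above each other GX library in 103 genes and below in 17, 120 in all, and the next was GX MRL5 4 with 60. GX MRL5 1 lay closest to GX DMSO 1. Of the 36 pairs of GX libraries, the correlation over genes was highest between GX MRL5 1 and GX DMSO 1 (Pearson's r across genes 0.986, over 12818 genes, which are not independent) and lowest between GX MRL5 1 and GX MRL5 3 (0.961). The next highest correlation of GX MRL5 1 was with GX MRL5 2 (0.9752), against 0.9747, 0.9728 and 0.9743 with GX DMSO 2, 3 and 4. On the first principal component, which held 23.7% of the variance, GX MRL5 1 was at -30.5, GX MRL5 4 at 20.0 and GX MRL5 3 at 35.5, with GX DMSO 1 at -23.1 and GX DMSO 4 at -16.6. Between them lay GX DMSO 2 at -3.20, GX DMSO 3 at -0.312, GX MRL5 2 at 7.29 and GX MRL5 5 at 10.9. Without GX MRL5 1, 635 genes were higher and 383 lower at an unadjusted p under 0.05, 1018 in place of 585, and 0 passed the adjusted test. GX MRL5 4 is the only GX library of the set numbered 174 in the library names, the other 8 being of set 148, so for that library mouse and set cannot be told apart. Within set 148, 252 genes were higher and 184 lower, and 0 passed. Column sums lay between 17965774 and 21531953 in GX MRL5 and between 18896485 and 22163644 in GX DMSO.

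The labelled tissue was checked against its markers. All 5 cardiomyocyte markers (Myh6, Actc1, Tnnt2, Tnni3, Ryr2) and all 3 ventricular markers were measured, and the sum of the ventricular markers was 231549.6 to 254947 in GX MRL5 and 214361 to 307546 in GX DMSO. The atrial light chain Myl7 had 3.37, 11.3, 4.06, 133 and 2.06 in GX MRL5, against 4.42, 13.2, 643 and 0 in GX DMSO, so that GX DMSO 3 and GX MRL5 4 held more of it than the others, and Sln was not in the table. The sum of the atrial markers Myl7, Myl4 and Nppa ordered the libraries otherwise. It was 5101, 2778, 3606, 2144 and 3320 in GX MRL5, against 4801, 796, 5603 and 6068 in GX DMSO. By that sum GX MRL5 4 was the lowest treated mouse and GX DMSO 4 the highest of all. Myl7 was a small part of each sum, which mainly held Myl4 and Nppa. The mean log2 value of a longer list of 10 atrial genes was highest in GX DMSO 3 and GX MRL5 4, as for Myl7. It lay 1.33 and 0.46 above the DMSO mean in these libraries, and between -0.64 and -0.27 from it in the others. In bulk tissue, fewer cells of a type and less RNA per cell cannot be told apart. Of the beta subunits that accompany sodium channels, Scn2b had 21.3, 16.1, 14.1, 21.8 and 16.9 in GX MRL5, against 12.7, 18.6, 17.7 and 7.42 in GX DMSO, a log2 fold change of 0.39 (SE 0.285), and these groups overlapped. Over single libraries left out that of Scn2b lay between 0.13 and 0.54. Scn4b had a log2 fold change of 0.0036 (SE 0.2), which took both signs when single libraries were left out.

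The genes of smallest p among those higher with MRL5 came from several functions: an acute phase protein, a tumour necrosis factor receptor, 3 genes of growth factor signalling, a metallothionein, a co-chaperone of the glucocorticoid receptor, a membrane transporter, a histone methyltransferase, a synaptotagmin, a stretch-responsive muscle protein and a protein of the skin barrier. Each of the 12 is shown by library. Within set 148 their log2 fold changes lay between 0.48 and 1.90, and without GX MRL5 3 between 0.49 and 1.82.

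**Figure D2:**
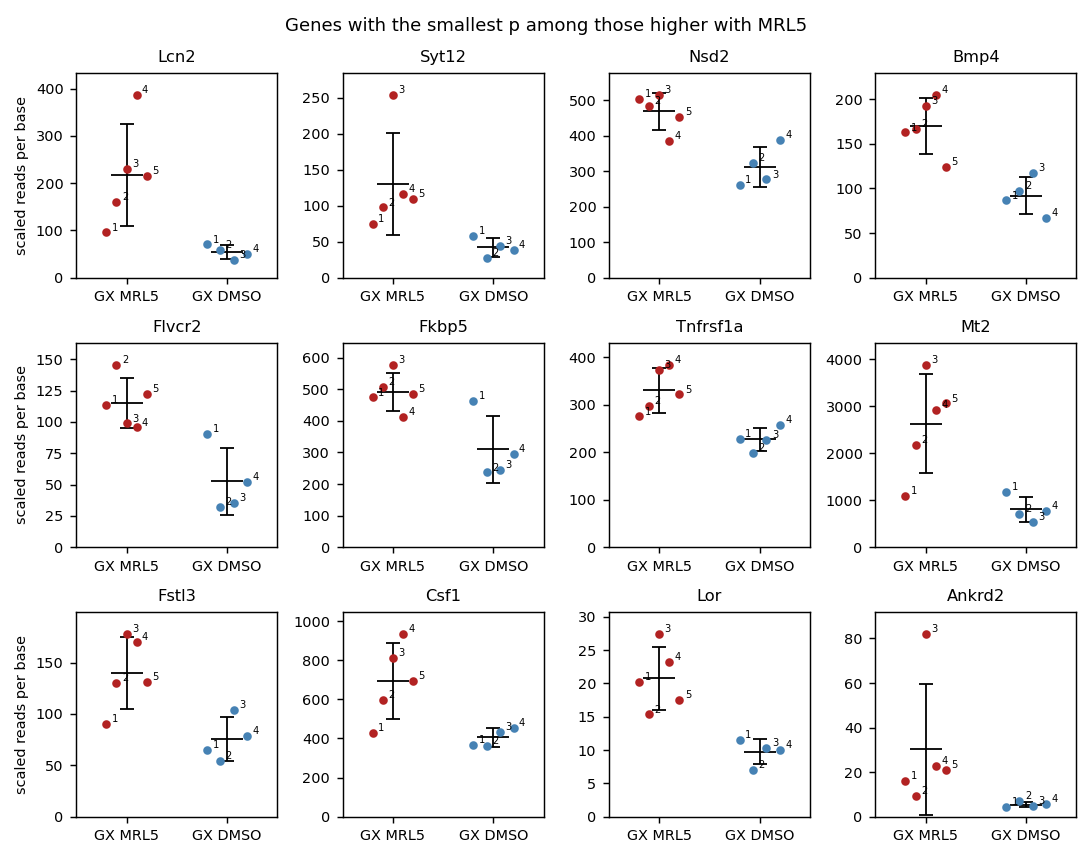
Value in scaled reads per base (y axis, from 0) in each GX MRL5 library (red) and each GX DMSO library (blue), numbered by library, for the 12 genes of smallest p among those higher with MRL5; bars give the mean and SD. In 7 of the 12 panels (Lcn2, Syt12, Bmp4, Flvcr2, Tnfrsf1a, Lor and Ankrd2) the groups do not overlap.

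Lcn2, lipocalin 2, is secreted in the acute phase and withholds iron from bacteria by binding their siderophores (chr2:32384633-32388252, GRCm38, reverse strand). It had 95.8, 161, 229, 386 and 215 in GX MRL5, against 70.5, 59.4, 37.4 and 49.9 in GX DMSO. GX MRL5 4 was highest and GX MRL5 1 lowest of the treated mice, and the groups did not overlap. Its log2 fold change was 1.87 (SE 0.341), with a mean of 217 ± 108 (SD, n = 5) in GX MRL5 and 54.3 ± 14.1 (SD, n = 4) in GX DMSO. Tnfrsf1a, the receptor through which tumour necrosis factor activates NF-kB (chr6:125349362-125362484), had 275, 298, 372, 384 and 321 in GX MRL5, against 227, 198, 225 and 257 in GX DMSO. These groups were also apart, with the nearest values in GX MRL5 1 and GX DMSO 4, and the log2 fold change was 0.53 (SE 0.123). Csf1, the growth factor of the macrophage lineage, had 429, 596, 811, 933 and 693 in GX MRL5, against 368, 364, 434 and 455 in GX DMSO, a log2 fold change of 0.73 (SE 0.182). Only GX MRL5 1 reached into the DMSO range.

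Genes of cytokine signalling were described as lists. Of 28 NF-kB and tumour necrosis factor genes, 23 had a positive fold change and 5 were higher at an unadjusted p under 0.05, against 2.71% of all genes. They were Tnfrsf1a, Csf1, the cytokine Il1b at 1.88 (SE 0.657), the NF-kB inhibitor Nfkbie at 0.76 (SE 0.299) and the adhesion molecule Icam1 at 0.61 (SE 0.271), and at 0.32 without GX MRL5 3. The list's median was 0.27, and 0.15 without GX MRL5 3. Il1b values were low, with 3.62, 5.74, 52.7, 9.01 and 10.5 in GX MRL5, against 2.45, 2.02, 0.457 and 5.05 in GX DMSO, and GX MRL5 3 was far above the other libraries. Of 21 genes of interleukin and STAT3 signalling, 16 were positive and 7 were higher at that p. Among the receptor chains, Il4ra, shared by the interleukin 4 and interleukin 13 receptors, had 184, 202, 461, 256 and 181 in GX MRL5, against 182, 121, 131.1 and 163 in GX DMSO. Osmr, the oncostatin M receptor, had 249, 407, 647, 449 and 345 in GX MRL5, against 297, 282, 262 and 276 in GX DMSO. GX MRL5 3 was highest for both. GX MRL5 5 lay within the DMSO range for Il4ra, and GX MRL5 1 below all vehicle mice for Osmr. Their log2 fold changes were 0.70 (SE 0.23) and 0.52 (SE 0.206), and 0.47 and 0.34 without GX MRL5 3. Il6ra and Il1r1, the receptors of interleukin 6 and interleukin 1, had log2 fold changes of 0.32 (SE 0.137) and 0.43 (SE 0.182), and for Il6ra the groups did not overlap, with 145 to 164 in GX MRL5 and 113 to 132 in GX DMSO. Of the feedback inhibitors, Socs3 had 16, 30.01, 177, 46.5 and 21.8 in GX MRL5, against 22.1, 10.7, 14 and 14.5 in GX DMSO, a log2 fold change of 1.33 (SE 0.527), and Socs2 had 272, 395, 396, 391 and 464 in GX MRL5, against 309, 161, 302 and 321 in GX DMSO, one of 0.52 (SE 0.191). The groups overlapped for both, since GX DMSO 1 lay above GX MRL5 1. Without GX MRL5 3 the log2 fold change of Socs3 was 0.79, and without GX DMSO 2, its lowest library, that of Socs2 was 0.28. The list's median was 0.17, from 0.13 without GX MRL5 3 to 0.26 without GX MRL5 1.

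Acute phase proteins are secreted during inflammation. Of 13 such genes tested, Lcn2 included, 12 had a positive fold change, against 51.5% of all genes. At an unadjusted p under 0.05, 6 were higher, against 2.71% of all genes. The list's median was 0.33, from 0.27 without GX MRL5 4 to 0.41 without GX DMSO 1, and it was 0.40 without GX MRL5 3. Ptx3, the long pentraxin, had 10.6, 109, 568, 77.5 and 55.1 in GX MRL5, against 10.9, 7.94, 15.1 and 7.43 in GX DMSO. In 4 treated mice it lay above all vehicle mice, while GX MRL5 1 was within their range, and the log2 fold change was 2.86 (SE 0.796). Timp1, an inhibitor of matrix metalloproteases, had 38.9, 67, 430.4, 193 and 78.8 in GX MRL5, against 32.6, 22.4, 42.3 and 28.9 in GX DMSO, a log2 fold change of 1.83 (SE 0.571) that was 1.34 without GX MRL5 3. Cp, ceruloplasmin, which carries copper and oxidises iron, had 488, 537, 476, 579.9 and 597 in GX MRL5, against 473, 423, 385 and 462 in GX DMSO. Its groups did not overlap, though the nearest values, 476 in GX MRL5 3 and 473 in GX DMSO 1, differed little (log2 fold change 0.30, SE 0.1). Serpina3n, a secreted protease inhibitor, had 605, 512, 874, 1075 and 629 in GX MRL5, against 593, 256, 260.1 and 273 in GX DMSO, where GX DMSO 1 alone of the vehicle mice reached the treated range (log2 fold change 1.14, SE 0.416). Haptoglobin (Hp) was the single member with a negative value, at -0.041 (SE 0.784), and lay between -0.63 and 0.20 over single libraries left out.

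Chemokines draw leukocytes out of the blood. Of 18 tested, 17 had a positive fold change, against 51.5% of all genes. At an unadjusted p under 0.05, 6 were higher, against 2.71% of all genes. The median was 0.46, and 0.26 without GX MRL5 3. The monocyte chemoattractants Ccl2, Ccl7 and Ccl12 lie close together on chromosome 11 and act on the receptor Ccr2. Ccl2 had 26.6, 132, 1494, 192 and 113 in GX MRL5, against 16.6, 27.3, 38.9 and 31.7 in GX DMSO. Ccl7 had 6.74, 65.5, 613, 128.5 and 50.5 in GX MRL5, against 6.18, 7.09, 21.9 and 28.9 in GX DMSO, and Ccl12 had 19.5, 17.4, 104, 39.8 and 16.1 in GX MRL5, against 11.8, 8.34, 4.21 and 13.6 in GX DMSO. GX MRL5 3 was highest for each of the 3, and GX MRL5 1 lay within the DMSO range for Ccl2 and Ccl7, whereas the groups did not overlap for Ccl12. Their log2 fold changes were 2.53 (SE 0.808), 2.37 (SE 0.969) and 1.66 (SE 0.499), and 1.74, 1.61 and 1.21 without GX MRL5 3. Ccl19, which guides lymphocytes and dendritic cells, had 41.8, 21.1, 45.9, 46.5 and 24.1 in GX MRL5, against 22.8, 3.77, 31.5 and 13.7 in GX DMSO, a log2 fold change of 1.20 (SE 0.501) and of 0.64 without GX DMSO 2, its lowest library. Cxcl1, a neutrophil chemoattractant of the rodent, had 11.7, 40.1, 334, 47.2 and 33.7 in GX MRL5, against 10.2, 18.8, 22.9 and 15.2 in GX DMSO, a log2 fold change of 1.53 (SE 0.671) and of 0.84 without GX MRL5 3.

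The promoter of Cxcl1 is shown because its window, the single chemokine window among those looked up by gene, holds matches to an NF-kB motif, searched as GGG, any pair of bases and TTTCC on both strands. The window runs from 250 bases before to 50 bases after the RefSeq start (chr5:90890995-90891294, forward strand, GRCm38.p6), and capitals mark the 2 matches, which start 89 and 71 bases before the start site.
Cxcl1: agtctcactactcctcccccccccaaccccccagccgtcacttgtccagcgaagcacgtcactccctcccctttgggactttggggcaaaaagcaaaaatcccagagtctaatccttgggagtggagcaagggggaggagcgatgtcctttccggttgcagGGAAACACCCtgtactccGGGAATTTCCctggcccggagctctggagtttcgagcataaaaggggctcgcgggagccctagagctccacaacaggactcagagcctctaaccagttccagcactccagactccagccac
Of 13579 such windows of 10655 tested genes, 1.66% held at least 1 match. The windows of Lcn2 and Ptx3 held none of these letters, and Ccl2 and Ccl7 were not in the table of promoters. A match is a description of the sequence and not a measured binding site.

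Growth factor signalling of the BMP and TGF-beta family runs from secreted ligands through paired receptors to SMAD proteins, with secreted binding proteins as inhibitors. Of 33 genes, 24 had a positive fold change, 6 were higher and 2 lower at an unadjusted p under 0.05, against 2.71% and 1.42% of all genes. The median was 0.10, from 0.021 without GX DMSO 4 to 0.21 without GX MRL5 1. Among the ligands, Bmp4 (chr14:46383520-46390669) had 163, 167, 193, 204 and 124 in GX MRL5, against 86.6, 97.5, 117 and 66.7 in GX DMSO. The nearest values were 124 in GX MRL5 5 and 117 in GX DMSO 3, so the groups were apart, and the log2 fold change was 0.89 (SE 0.187), with 0.84 without GX MRL5 3. Inhbb, the subunit of activin B, had 69.7, 107, 203, 147 and 119 in GX MRL5, against 88.3, 67.8, 64.5 and 82.3 in GX DMSO, a log2 fold change of 0.69 (SE 0.254). Gdf15, a stress-induced ligand, was lower, with 18.1, 24.1, 25, 18.7 and 12.1 in GX MRL5, against 16.1, 56.5, 59.3 and 40.5 in GX DMSO; GX DMSO 1 lay among the treated mice, and the log2 fold change was -0.98 (SE 0.355). The receptor Tgfbr1 had 121, 156, 203, 183 and 149 in GX MRL5, against 119.7, 133, 120.4 and 105 in GX DMSO, a log2 fold change of 0.42 (SE 0.144), and the decoy receptor Bambi one of 0.45 (SE 0.19). Of the secreted activin-binding proteins, Fstl3 had 90.3, 130.6, 178, 169.9 and 131.5 in GX MRL5, against 65.4, 54, 104 and 78.4 in GX DMSO, and Fst, follistatin, had 8.66, 13.4, 47, 26.5 and 12 in GX MRL5, against 6.89, 5.85, 7.08 and 2.15 in GX DMSO. For Fst the groups did not overlap, while for Fstl3 only GX MRL5 1 lay below GX DMSO 3. The log2 fold changes were 0.88 (SE 0.219) and 1.63 (SE 0.581). Smad9, a transducer of BMP signals, had a log2 fold change of -0.53 (SE 0.222).

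Metallothioneins bind zinc and copper and are induced by metals, glucocorticoids and oxidative stress. Mt2 (chr8:94172664-94173568) had 1093, 2167, 3879.6, 2926 and 3057 in GX MRL5, against 1183, 705, 546 and 774 in GX DMSO. The 4 treated mice other than GX MRL5 1 lay above the highest vehicle mouse, GX DMSO 1, and the log2 fold change was 1.65 (SE 0.393). Mt1, its neighbour on chromosome 8, had 8862, 8514, 10179.7, 8014 and 9763 in GX MRL5, against 8176, 5393, 5599 and 6878 in GX DMSO, where GX DMSO 1 lay above GX MRL5 4 (log2 fold change 0.49, SE 0.138). Their promoters are shown because the genes lie side by side and both hold repeated matches to the core of the metal response element, searched as TGCACNC and TGCGCNC on both strands and marked in capitals. The windows are those of RefSeq on GRCm38.p6, chr8:94178839-94179138, forward strand, and chr8:94172368-94172667, forward strand.
Mt1: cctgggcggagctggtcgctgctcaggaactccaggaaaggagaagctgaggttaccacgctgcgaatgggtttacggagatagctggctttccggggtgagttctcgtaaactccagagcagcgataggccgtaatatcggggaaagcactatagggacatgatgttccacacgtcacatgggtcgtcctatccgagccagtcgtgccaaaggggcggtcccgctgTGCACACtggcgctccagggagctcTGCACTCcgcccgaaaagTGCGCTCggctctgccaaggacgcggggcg
Mt2: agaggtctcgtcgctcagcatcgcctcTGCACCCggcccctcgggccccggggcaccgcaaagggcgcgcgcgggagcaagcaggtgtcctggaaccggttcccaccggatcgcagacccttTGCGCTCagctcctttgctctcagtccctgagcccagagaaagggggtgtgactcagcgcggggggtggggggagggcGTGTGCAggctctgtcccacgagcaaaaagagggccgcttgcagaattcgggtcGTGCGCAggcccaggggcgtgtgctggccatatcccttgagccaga
Mt1 held 3 matches, which start 23 bases before and at positions 2 and 20 from the start site, and Mt2 held 4. At least 1 match was found in 35% of the 13579 windows and 3 or more in 3.08%. Hmox1, which breaks down heme, had 308, 211, 578, 388 and 299 in GX MRL5, against 299.6, 173, 129.4 and 180.3 in GX DMSO, a log2 fold change of 0.85 (SE 0.26) and of 0.66 without GX MRL5 3. Flvcr2, a membrane transporter of the family first described for heme export (chr12:85746539-85813585), had 114, 146, 98.8, 95.6 and 122 in GX MRL5, against 90.3, 31.9, 35.6 and 52.2 in GX DMSO. The groups were apart, with GX MRL5 4 and GX DMSO 1 nearest to each other, and the other 3 vehicle mice lay at 52.2 or less. Its log2 fold change was 1.22 (SE 0.263, limma adjusted p = 0.972), and 1.52 (SE 0.215, limma adjusted p = 0.0485) without GX DMSO 1, its highest vehicle mouse. Of 22 metal, iron and heme genes, 15 were positive, with a median of 0.11. At an unadjusted p under 0.05, 6 were higher, against 2.71% of all genes.

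Glucocorticoid targets were mixed in direction. Of 24 tested, 13 had a positive fold change, and the median was 0.10, from 0.0094 without GX DMSO 2 to 0.21 without GX DMSO 1. At an unadjusted p under 0.05, 6 were higher and 1 lower, against 2.71% and 1.42% of all genes. Higher were Fkbp5, Mt1, Mt2, Lcn2, Pdk4 and Angptl4, of which other lists here hold Mt1, Mt2, Lcn2, Pdk4 and Angptl4 too. Fkbp5, a co-chaperone that restrains the glucocorticoid receptor (chr17:28399094-28517527), had 474, 506, 578, 414 and 484 in GX MRL5, against 463, 237, 244 and 294 in GX DMSO. GX DMSO 1 lay within the treated range and the other 3 vehicle mice below it, and the log2 fold change was 0.71 (SE 0.164). Without GX DMSO 1 it was 0.92 (SE 0.114, limma adjusted p = 0.0222), and Flvcr2 and Fkbp5 were then the 2 genes that passed. GX DMSO 1 was the highest vehicle mouse for both, so leaving it out widens both differences by construction. With all libraries the limma adjusted p of Fkbp5 was 0.999. Of the 22 alternatives described below, no other had a gene that passed. Sgk1, a kinase that regulates sodium transport, was lower, with 377, 371, 352, 202 and 331 in GX MRL5, against 396, 468, 496 and 429 in GX DMSO, a log2 fold change of -0.48 (SE 0.154) and of -0.32 without GX MRL5 4; the groups did not overlap, and GX MRL5 4 was lowest.

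Genes of fuel use that respond to fasting and lipids stood on both sides of 0. Angptl4, which inhibits lipoprotein lipase, had 216, 292, 411, 397 and 371 in GX MRL5, against 207, 182, 61.1 and 99.6 in GX DMSO. Its groups did not overlap, GX MRL5 1 and GX DMSO 1 being nearest, with a log2 fold change of 1.41 (SE 0.403). Pdk4, which turns glucose oxidation down, had 3352, 5104, 5307, 2481 and 5822 in GX MRL5, against 3397, 2676, 1176 and 2365 in GX DMSO, a log2 fold change of 0.91 (SE 0.407) and of 0.60 without GX DMSO 3, and the lipid droplet protein Plin2 had 546, 687, 806, 788 and 700.3 in GX MRL5, against 518, 605, 439 and 569 in GX DMSO, one of 0.40 (SE 0.128). Ppargc1a, a coactivator that raises mitochondrial gene expression, was lower, with 1412, 1109, 646, 985 and 1474 in GX MRL5, against 1626, 2177, 1598 and 1177 in GX DMSO, a log2 fold change of -0.57 (SE 0.248) and of -0.39 without GX MRL5 3. Of 32 fatty acid and PPAR genes, 14 were positive (median -0.013, from -0.063 without GX MRL5 1 to 0.032 without GX MRL5 4), and of 34 nuclear-encoded subunits of oxidative phosphorylation 4 were, with 0 under an unadjusted p of 0.05 (median -0.052, from -0.11 without GX DMSO 3 to 0.028 without GX DMSO 4). Ribosomal protein genes had 12 of 34 positive (median -0.036, from -0.12 without GX DMSO 2 to 0.083 without GX DMSO 4), also with 0 at that p. GX DMSO 4 was highest of all 9 libraries in the mean of both lists, by 0.29 and 0.39 log2 units above the DMSO mean.

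Among cardiomyocyte genes named by the same rule were regulators of calcium and of stretch. Rrad, a small GTPase that inhibits the L-type calcium channel, had 2095, 2825, 3748, 4879 and 2292 in GX MRL5, against 1927, 1870.5, 1827 and 2052 in GX DMSO. The groups did not overlap, though GX MRL5 1 lay close above GX DMSO 4, and the log2 fold change was 0.65 (SE 0.196). Adrb1, the main beta-adrenergic receptor of the heart, had 214, 269.5, 266, 325 and 329 in GX MRL5, against 194, 211, 229 and 219.8 in GX DMSO, a log2 fold change of 0.38 (SE 0.118), with only GX MRL5 1 inside the DMSO range. Jph2, which holds the T tubule close to the sarcoplasmic reticulum, had a log2 fold change of -0.20 (SE 0.0886). Ankrd2, a stretch-responsive ankyrin repeat protein (chr19:42036000-42045110), had 16.1, 9.41, 81.9, 22.6 and 21.2 in GX MRL5, against 4.32, 7.25, 4.71 and 5.68 in GX DMSO. The groups were apart and GX MRL5 3 lay far above the rest, with a log2 fold change of 1.90 (SE 0.503) and of 1.45 without that library. Nrap, a scaffold at the ends of myofibrils, had 13934, 17377, 29535, 16908 and 18912 in GX MRL5, against 14503, 14742, 13599 and 13729.7 in GX DMSO, a log2 fold change of 0.40 (SE 0.182) and of 0.24 without GX MRL5 3.

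Of the calcineurin and NFAT genes, Rcan1, an inhibitor of calcineurin whose transcription calcineurin raises, had a log2 fold change of 1.20 (SE 0.458) and of 0.74 without GX MRL5 3. The transcription factor Nfatc2 was lower, with 142, 119, 84, 119 and 97.5 in GX MRL5, against 217, 123, 152 and 195 in GX DMSO; GX DMSO 2 lay within the treated range, and the log2 fold change was -0.60 (SE 0.181). Mef2d, a transcription factor of muscle, had 1215, 1035, 1009, 1037 and 1014 in GX MRL5, against 1264, 1319, 1186 and 1143 in GX DMSO, a log2 fold change of -0.21 (SE 0.0809). Nkx2-5, a factor that specifies cardiac and conduction cells, had 1514, 1139, 1177, 1146 and 1215 in GX MRL5, against 1567, 1212, 1508 and 1749 in GX DMSO, one of -0.28 (SE 0.125). For Mef2d and Nkx2-5, GX MRL5 1 was the highest treated mouse and within the DMSO range, and the other 4 lay close together. Gata4, another cardiac factor, had a log2 fold change of -0.21 (SE 0.0892), and the nuclear receptor Esrrb had 312, 258, 274, 250.5 and 243 in GX MRL5, against 322, 335, 389.6 and 325 in GX DMSO. The Esrrb groups did not overlap (log2 fold change -0.36, SE 0.105), with GX MRL5 1 nearest to the vehicle mice. Of the 27 fetal and hypertrophy genes, 21 had a positive fold change (median 0.20, and 0.099 without GX MRL5 3). At an unadjusted p under 0.05, 4 were higher and 3 lower, against 2.71% and 1.42% of all genes. Igf2bp2, an RNA-binding protein of fetal tissue, was among the higher ones, with 14.7, 24.6, 38.3, 22.2 and 25.8 in GX MRL5, against 8.45, 11.3, 15.4 and 15.8 in GX DMSO, a log2 fold change of 0.90 (SE 0.284).

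The authors mark 86 genes as cardiac conduction genes in the deposited table. Of these, 43 had a positive fold change, 3 were higher and 1 lower at an unadjusted p under 0.05, against 2.71% and 1.42% of all genes at that p. The median was -0.00051, from -0.012 without GX DMSO 4 to 0.019 without GX DMSO 2. Higher were Kcne4, a subunit that inhibits potassium channels, at 0.45 (SE 0.179), the plasma membrane calcium pump Atp2b3 at 1.23 (SE 0.398) and angiotensinogen, Agt, at 0.66 (SE 0.268), and lower was Nkx2-5. Kcne4 had 49.1, 70.9, 72, 80.0 and 63.8 in GX MRL5, against 53.2, 42.4, 48.4 and 49.3 in GX DMSO, with GX MRL5 1 inside the DMSO range. Agt had 233, 207, 192, 186 and 276 in GX MRL5, against 178, 145, 119.7 and 112 in GX DMSO, and its groups did not overlap.

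Other genes of the 12 had roles outside these groups. Nsd2, a histone methyltransferase (chr5:33820725-33897975), had 504, 483, 514, 386 and 453 in GX MRL5, against 260.4, 323, 276 and 387 in GX DMSO. GX MRL5 4, at 386, and GX DMSO 4, at 387, were nearly equal, and every other treated mouse lay above every vehicle mouse, with a log2 fold change of 0.59 (SE 0.125). Syt12, a synaptotagmin that does not bind calcium (chr19:4445908-4477447), had 74.4, 97.9, 254, 116 and 109.9 in GX MRL5, against 58.5, 28.1, 44.1 and 38.2 in GX DMSO. GX MRL5 3 was highest, and the groups were apart, with a log2 fold change of 1.52 (SE 0.308) and of 1.25 without GX MRL5 3. Lor, loricrin of the cornified skin layer, had low values of 20.2, 15.3, 27.4, 23.3 and 17.5 in GX MRL5, against 11.5, 7.09, 10.4 and 10.0 in GX DMSO, a log2 fold change of 1.01 (SE 0.263) with no overlap. Among genes chosen for the widest gap between the groups, Ikzf1, a transcription factor of blood cells, had 15.9, 13.3, 13.6, 22.7 and 13.2 in GX MRL5, against 7.51, 5.31, 9.35 and 8.39 in GX DMSO, the fucosyltransferase Fut2 had 12.7, 17.9, 21.7, 13.7 and 24.9 in GX MRL5, against 9.14, 7.51, 7.94 and 8.18 in GX DMSO, and Pwwp3b had 26.7, 26.5, 72.6, 35.6 and 25.5 in GX MRL5, against 11.4, 18.3, 19.9 and 20.0 in GX DMSO. Their log2 fold changes were 0.95 (SE 0.273), 1.02 (SE 0.274) and 0.97 (SE 0.3), and without GX MRL5 3 that of Pwwp3b was 0.70.

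The genes of smallest p among those lower with MRL5 had varied functions. Tbccd1, a centrosomal protein related to a tubulin cofactor (chr16:22813214-22857669), had 95.3, 91, 85.2, 101 and 96.9 in GX MRL5, against 111, 142, 130.1 and 128 in GX DMSO. All treated mice lay at or under 101 and all vehicle mice at or above 111, with a log2 fold change of -0.44 (SE 0.105). Rbm38, an RNA-binding protein, had 2328, 1784, 1519.8, 1858 and 1846 in GX MRL5, against 2299, 2511, 2279.5 and 2570.2 in GX DMSO, a log2 fold change of -0.38 (SE 0.0987), with GX MRL5 1 alone inside the DMSO range. Galm, which interconverts the forms of galactose, had a log2 fold change of -0.44 (SE 0.122), and Gas2, which binds actin and microtubules, one of -0.51 (SE 0.142). Zfp14, a zinc finger protein, had 50.7, 37.2, 33.8, 42.1 and 34.1 in GX MRL5, against 63.7, 60.4, 56.9 and 56.7 in GX DMSO, a log2 fold change of -0.59 (SE 0.166) with no overlap. Slc9a3, a sodium and proton exchanger best known from kidney and gut, had 4.24, 5.3, 24.3, 4.34 and 8.21 in GX MRL5, against 26.4, 14.8, 23.4 and 49.7 in GX DMSO. GX MRL5 3 was in the DMSO range and the other 4 treated mice below it, so the log2 fold change of -1.69 (SE 0.485) was -2.09 without that library. Rubcnl, an autophagy protein, had 9.67, 13.8, 11.2, 10.9 and 21.5 in GX MRL5, against 20.7, 22.4, 32.6 and 36.9 in GX DMSO, a log2 fold change of -1.03 (SE 0.302). By the widest gap, Gsto2, a glutathione transferase, had 15.4, 14.3, 15.7, 16.7 and 16.3 in GX MRL5, against 23.2, 21.6, 24 and 32.7 in GX DMSO, and Pkdrej, a receptor of the polycystin family, had 118, 104, 57.8, 67.6 and 95.8 in GX MRL5, against 149, 157, 135 and 131.3 in GX DMSO. Apoa2, an apolipoprotein, had 7.57, 14.4, 15.5, 7.23 and 11.2 in GX MRL5, against 18.3, 61.5, 24.4 and 17.2 in GX DMSO, the kinesin Kif6 had 7.52, 9.68, 12.4, 8.4 and 11.6 in GX MRL5, against 20.4, 15.8, 22.4 and 13.7 in GX DMSO, and Zfp458 had 12.1, 10.4, 6.58, 11.3 and 11.1 in GX MRL5, against 14.4, 15.2, 14.3 and 15 in GX DMSO. Their log2 fold changes lay between -1.22 for Apoa2 and -0.50 for Zfp458.

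Medians of the 48 lists ran from -0.19 for atrial markers to 0.46 for erythroid and platelet genes. The atrial median was 0.094 without GX DMSO 3, the library with the highest mean of this list, and -0.48 without GX DMSO 2. The erythroid and platelet list had 14 of 16 members positive and 1 higher at an unadjusted p under 0.05, the beta globin Hbb-bs, with 5385, 7228, 8058, 8663 and 10667 in GX MRL5, against 4527, 6641, 5593 and 6227 in GX DMSO. Matricellular and remodelling genes, which encode secreted proteins of a matrix under repair, had 30 of 34 positive and 5 higher at that p (median 0.26, from 0.16 without GX MRL5 4 to 0.44 without GX MRL5 1). Over all genes, 51.5% were positive and 2.71% were higher at that p. Thbs1, thrombospondin, had 64.6, 651, 3372, 591 and 422 in GX MRL5, against 64.4, 122, 314 and 47.4 in GX DMSO, and Tnc, tenascin C, had 19.5, 19.8, 269, 49.7 and 44.5 in GX MRL5, against 16.2, 20.8, 14.7 and 9.08 in GX DMSO. Lox, which cross-links collagen, had 119.8, 147, 239.8, 239 and 206 in GX MRL5, against 128.5, 109, 124 and 113 in GX DMSO. GX MRL5 3 was highest for each, and GX MRL5 1 lay within the DMSO range for each. The collagens and other structural matrix genes of fibroblasts had 20 of 30 positive and 0 at that p (median 0.052, from -0.045 without GX MRL5 4 to 0.14 without GX DMSO 3).

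**Figure D3:**
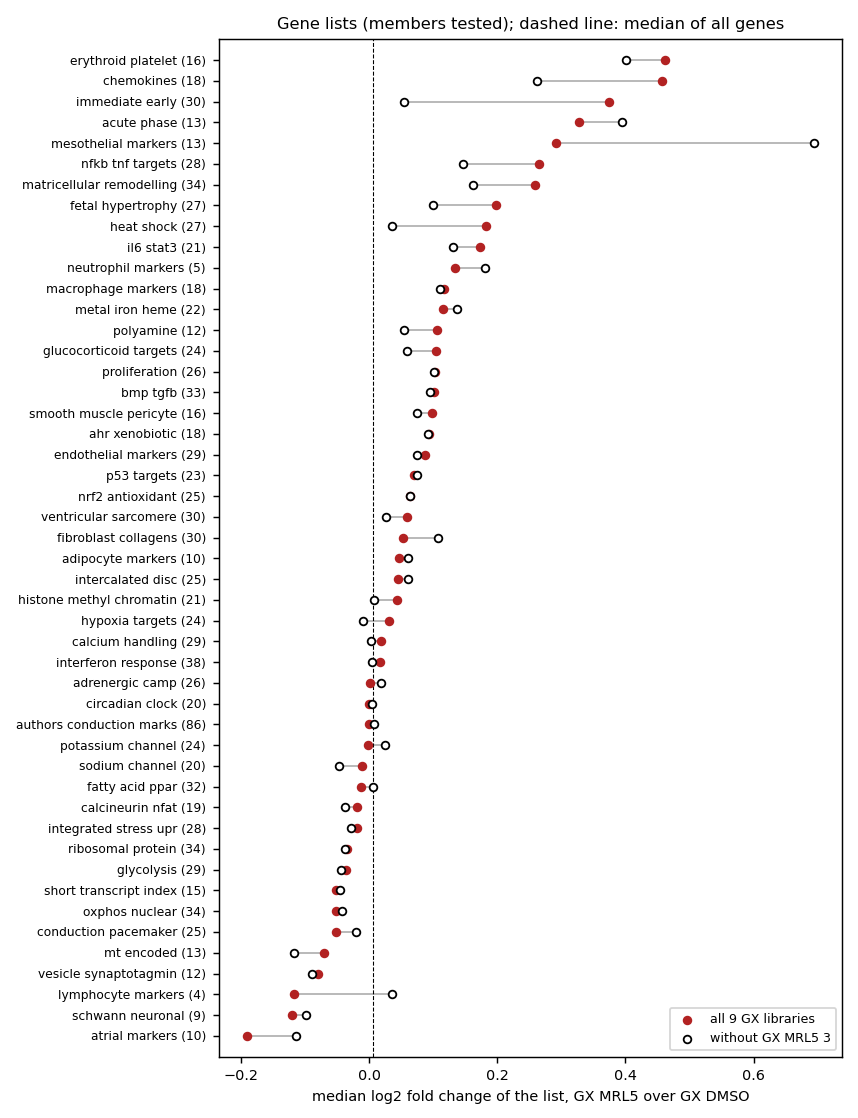
Median log2 fold change of GX MRL5 over GX DMSO (x axis) for each gene list with its number of tested members (y axis), over all 9 GX libraries (filled) and without GX MRL5 3 (open); the dashed line is the median of all genes. Chemokines move to 0.26, immediate early genes to 0.053 and heat shock genes to 0.036 without that library, while acute phase genes are at 0.40.

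Clock genes had 10 of 20 members positive with a median of -0.00019, from -0.0044 without GX MRL5 2 to 0.055 without GX DMSO 1. At an unadjusted p under 0.05, 4 were higher, against 2.71% of all genes. The repressors Bhlhe40 and Bhlhe41 had log2 fold changes of 0.50 (SE 0.181) and 0.41 (SE 0.179). Arntl, the activator of the clock, had one of 0.61 (SE 0.267), and Nr1d1, which represses Arntl, one of 0.51 (SE 0.205). Nr1d1 had 975, 1320.1, 895, 1116 and 648 in GX MRL5, against 936, 777, 601 and 479 in GX DMSO, with GX MRL5 5 and 3 inside the DMSO range. Aryl hydrocarbon receptor and xenobiotic genes had 13 of 18 positive (median 0.094, from 0.016 without GX DMSO 1 to 0.17 without GX MRL5 1), with the cytochrome Cyp1b1 at 0.76 (SE 0.227) and Tiparp, a target of that receptor, at 0.64 (SE 0.273), and at 0.36 without GX MRL5 3. Cyp1b1 had 191, 205, 192, 328 and 247 in GX MRL5, against 213, 106, 103 and 141 in GX DMSO, and GX DMSO 1 alone of the vehicle mice lay in the treated range. Proliferation genes had 21 of 26 positive (median 0.10, from 0.038 without GX DMSO 2 to 0.19 without GX MRL5 1), with the reductase subunit Rrm2 at 0.63 (SE 0.238) and cyclin Ccna2 at 0.72 (SE 0.279). For Rrm2 the groups did not overlap by a narrow margin, with 11 to 21.04 in GX MRL5 and 9.93 to 10.9 in GX DMSO.

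GX MRL5 3 held the highest mean of heat shock genes and of immediate early genes of the 9 libraries. The 10 genes in which it lay farthest from the other 8 were Hspa1b, Hspa1a, Otud1, Dnajb1, Adamts4, Ccn1, Atf3, Fos, Ccl2 and Arc. They encode inducible heat shock proteins and their co-chaperone Dnajb1, the deubiquitinase Otud1, the aggrecan protease Adamts4, the matricellular protein Ccn1, the chemokine Ccl2, the activity-regulated Arc and the transcription factors Atf3 and Fos. Hspa1a had 202, 978, 53385, 738 and 1187 in GX MRL5, against 176, 361, 555 and 149 in GX DMSO. Hspa1b had 87.4, 635, 44135, 540.1 and 618 in GX MRL5, against 96.4, 199.7, 266 and 128.7 in GX DMSO, and how reads were divided between these nearly identical genes is uncertain. GX MRL5 2, 4 and 5 also held more of both than each DMSO library, and GX MRL5 1 did not. Atf3 had 94.4, 469.7, 6805, 489 and 860.1 in GX MRL5, against 106, 217, 188 and 97.8 in GX DMSO, and Arc had 53.9, 109, 1743, 225 and 127 in GX MRL5, against 51.2, 52.6, 62.2 and 60.1 in GX DMSO. The other 4 treated mice lay above all vehicle mice for both, and GX MRL5 1 lay below them for Atf3 and among them for Arc. Fos had 22.4, 70.4, 558, 19.6 and 40.1 in GX MRL5, against 29.9, 28.3, 35.9 and 33.9 in GX DMSO, where GX MRL5 1 and 4 lay below all vehicle mice and GX MRL5 2, 3 and 5 above them. Without GX MRL5 3 the log2 fold changes were 1.26 for Hspa1a, 1.20 for Hspa1b, 1.36 for Atf3, 1.00 for Arc, 0.53 for Adamts4, 0.071 for Fos, 0.036 for Dnajb1, -0.033 for Ccn1 and -0.35 for Otud1. With it they were 2.53 (SE 1.28) for Hspa1a, 2.58 (SE 1.38) for Hspa1b, 2.20 (SE 0.91) for Atf3, 1.79 (SE 0.737) for Arc, 1.35 (SE 0.725) for Adamts4, 0.87 (SE 0.738) for Fos, 0.82 (SE 0.722) for Dnajb1, 0.67 (SE 0.634) for Ccn1 and 0.61 (SE 0.884) for Otud1. Of 30 immediate early genes 22 were positive, with a median of 0.37 and of 0.053 without GX MRL5 3. At an unadjusted p under 0.05, 5 were higher, against 2.71% of all genes. Of 27 heat shock genes 25 were positive and 0 were at that p, with medians of 0.18 and 0.036.

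The promoters of Hspa1a and Hspa1b are shown so that the likeness of the pair can be seen. Both windows are from RefSeq on GRCm38.p6, chr17:34972107-34972406, reverse strand, and chr17:34959189-34959488, reverse strand, and capitals mark a match to the heat shock element, searched as GAANNTTC and TTCNNGAA on both strands.
Hspa1a: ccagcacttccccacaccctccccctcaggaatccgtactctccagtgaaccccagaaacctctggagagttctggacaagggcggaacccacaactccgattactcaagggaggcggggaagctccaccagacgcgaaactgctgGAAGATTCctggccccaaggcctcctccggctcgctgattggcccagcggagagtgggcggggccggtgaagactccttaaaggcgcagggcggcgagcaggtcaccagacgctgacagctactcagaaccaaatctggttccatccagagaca
Hspa1b: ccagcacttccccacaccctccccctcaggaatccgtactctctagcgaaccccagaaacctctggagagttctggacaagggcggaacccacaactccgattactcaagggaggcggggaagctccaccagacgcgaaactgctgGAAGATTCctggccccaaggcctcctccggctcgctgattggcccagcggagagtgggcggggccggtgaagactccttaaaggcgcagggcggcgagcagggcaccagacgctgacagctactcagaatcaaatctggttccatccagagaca
Each holds 1 match, which starts 104 bases before the start site, and the windows are identical at 296 of 300 positions. Of the 13579 windows, 11.8% held at least 1 match. The windows of Dnajb1 held none.

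**Figure D4:**
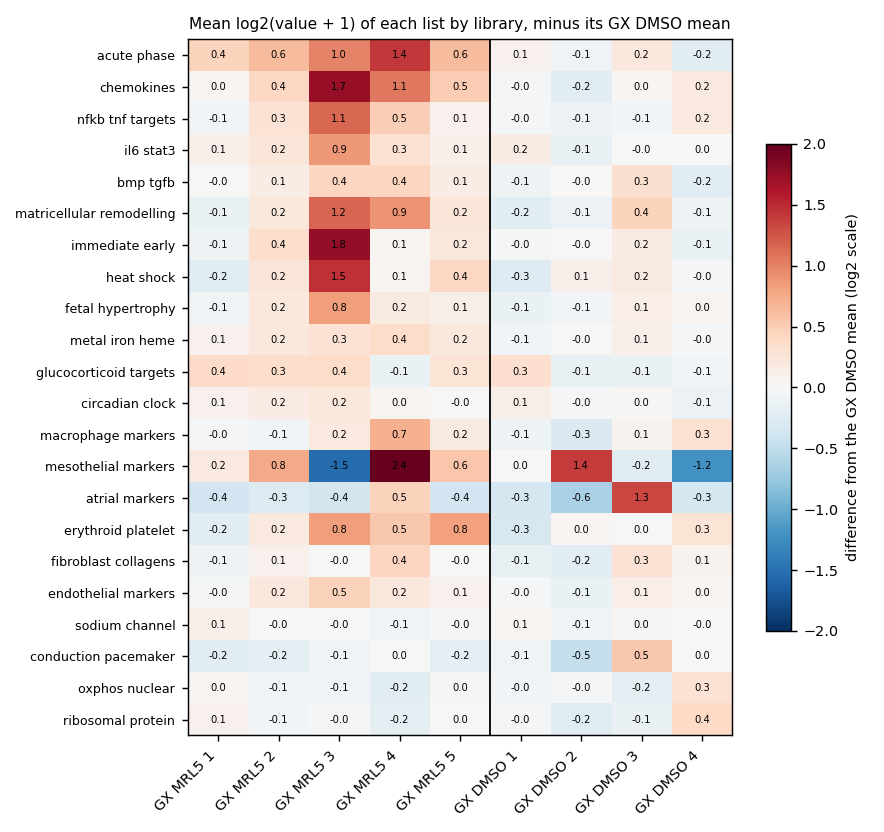
Mean log2(value + 1) of the members of each list (rows) in each GX library (columns), minus the mean of the 4 GX DMSO libraries; red is higher and blue lower, with full colour from 2 log2 units, and each cell prints the difference. Acute phase genes are at 0.45 to 1.42 in the 5 GX MRL5 columns, against -0.23 to 0.22 in GX DMSO, and heat shock and immediate early genes stand out in GX MRL5 3.

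Of the 22 lists drawn, acute phase genes were the single one in which the means of the groups did not overlap. Their mean lay above the DMSO mean by 0.45, 0.64, 0.99, 1.42 and 0.64 log2 units in GX MRL5, and the highest vehicle mouse was at 0.22. The lists were written with earlier results of these data known, and the 22 were picked from 48. The acute phase list also holds Lcn2, the gene of smallest p. Its lack of overlap is therefore partly set by those choices and does not test the list. Chemokines were at 0.045, 0.42, 1.74, 1.06 and 0.51 in GX MRL5, with the highest vehicle mouse, GX DMSO 4, at 0.20. GX MRL5 1 was inside the DMSO range for chemokines. Metal, iron and heme genes were at 0.088 in GX MRL5 1 and 0.36 in GX MRL5 4, the lowest and highest treated mice, with 0.094 in GX DMSO 3, the highest vehicle mouse.

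GX MRL5 1 was the treated mouse that most often lay with the vehicle mice. In 317 genes (2.24%) the other 4 treated mice lay above all 4 vehicle mice and GX MRL5 1 did not, and in 218 genes (1.54%) they lay below and it did not. When another GX MRL5 library was singled out in the same way, 54 to 70 genes were found above and 37 to 72 below. Among the 317 were Mt2, Fstl3, Csf1, Ptx3, Timp1, Ccl2, Adrb1, Plin2, Tgfbr1 and Igf2bp2. With both GX MRL5 1 and GX DMSO 1 left out, a choice made after the data were seen, 501 genes were higher and 316 lower at an unadjusted p under 0.05. Then 0 genes passed the adjusted test, and the smallest limma adjusted p was 0.061. The log2 fold changes were then 2.27 for Lcn2, 2.14 for Mt2, 1.52 for Flvcr2, 0.93 for Fkbp5 and 0.49 for Nsd2. With all GX libraries they were 1.87, 1.65, 1.22, 0.71 and 0.59. GX DMSO 1 was the highest vehicle mouse for Lcn2, Mt2, Flvcr2 and Fkbp5. GX MRL5 1 was the lowest treated mouse for Lcn2 and Mt2. The rise in these genes therefore follows by construction from the libraries left out.

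**Figure D5:**
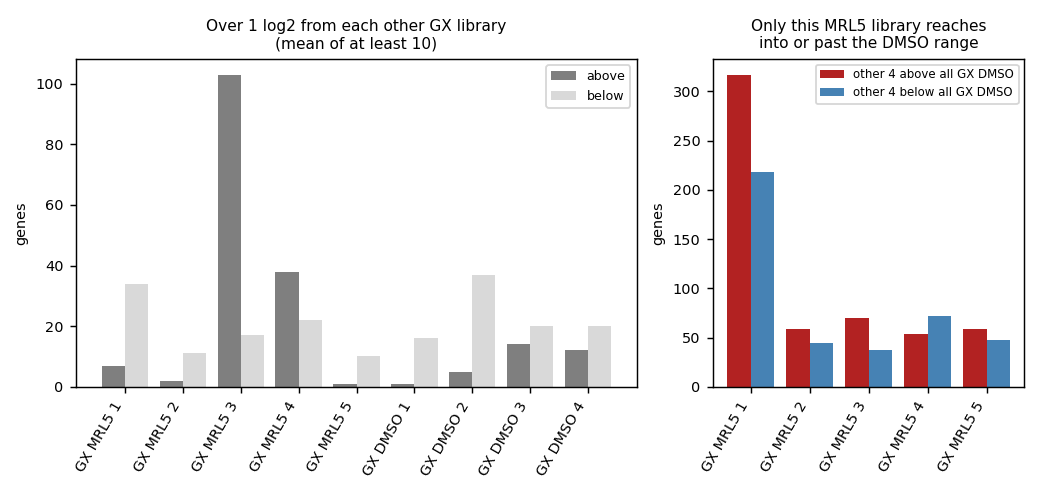
Left, genes with a mean of at least 10 in which a library lies over 1 log2 unit above (dark) or below (light) each of the other 8 GX libraries; right, genes in which the other 4 GX MRL5 libraries lie above (red) or below (blue) all GX DMSO libraries and the named one does not. GX MRL5 3 stands out on the left with 103 genes above, and GX MRL5 1 on the right with 317 and 218.

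Markers of other cell types were set beside the inflammatory genes. Of 5 neutrophil markers only S100a8 and S100a9 were tested, their sum was 10.5 to 53.8 in GX MRL5 and 1.16 to 89.2 in GX DMSO, and GX DMSO 3 had S100a8 at 0. The sum of the 5 macrophage markers was 3519 to 5438 in GX MRL5 and 3283 to 5534 in GX DMSO, and GX MRL5 4 and GX DMSO 4 were the highest of their groups. In the longer list of 18 macrophage genes, 16 were positive (median 0.12, from 0.019 without GX DMSO 2 to 0.26 without GX MRL5 2). Against 2.71% of all genes, 2 of the 18 were higher at an unadjusted p under 0.05. They were Mrc1, a mannose receptor, at 0.52 (SE 0.198) and the fractalkine receptor Cx3cr1 at 0.85 (SE 0.326), and GX MRL5 4 was highest for both, at 615 and 96.1. Markers of mesothelium, which covers the outer surface of the heart, summed to 87.3 to 418 in GX MRL5 and 43.8 to 316 in GX DMSO, with Upk3b at 108, 125, 2.03, 295 and 73.1 in GX MRL5, against 54.8, 207, 43.7 and 1.11 in GX DMSO. GX MRL5 3 and GX DMSO 4 held little of it and GX MRL5 4 the most. Erythroid markers summed to 9852 to 19543 in GX MRL5 and 8614 to 12242 in GX DMSO. Here GX MRL5 2, 3, 4 and 5, at 13250, 15683, 16046 and 19543, lay above all vehicle mice. The groups overlapped through GX MRL5 1 alone. Of 4 lymphocyte markers only Cd79a was tested, at 2.03 to 16.6 in GX MRL5 and 0.883 to 11.5 in GX DMSO, and of 3 adipocyte markers only Cfd, at 0 to 251 in GX MRL5 and 1.05 to 87 in GX DMSO, with GX MRL5 4 highest. Fibroblast markers summed to 7309 to 10542 in GX MRL5 and 7036 to 10029 in GX DMSO, endothelial markers to 10135 to 12999.8 in GX MRL5 and 10055 to 12609.7 in GX DMSO, and smooth muscle and pericyte markers to 8831 to 13433 in GX MRL5 and 8594 to 11378 in GX DMSO. For each of these cell types the sums of the groups overlapped, and their part in the results above was not tested.

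In the authors' deposited table, 13705 of the tested genes have a p for the same contrast. Of these, 470 (3.43%) have an unadjusted p under 0.05 in the authors' deposited table, 306 of them higher, and 387 have one under 0.05 there and in the limma fit. Both rest on libraries of this study and are not independent. Since the design text counts 4 GX mice with MRL5, whether all 9 GX libraries entered the authors' contrast is uncertain. The authors' deposited table has 0 genes with a q under 0.05 and 3 with one under 0.1: Lcn2 (q = 0.0601, fold 3.69), Bmp4 (q = 0.0757, fold 1.85) and Tnfrsf1a (q = 0.0757, fold 1.45).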

How the data were processed

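Polyadenylated RNA of mouse ventricle, extracted with a miRNeasy kit, was sequenced as paired-end libraries, per the labels' protocols. The authors deposited, for each gene and library, a signal value named scaled reads per base, per the file headers. The submitters' processing notes name kallisto, sleuth 0.3.0 and the build GRCm38. How values were scaled is not stated in these sources. Median ratios of the GX libraries lay between 0.988 and 1.01, and too few low values were whole multiples of 1 read to recover counts, so the count test (edgeR) that the design put first was not run and depth is unknown. Mitochondrial genes made up 39.9% to 45.5% of the column sum in GX MRL5 and 41.7% to 49.7% in GX DMSO. The authors also deposited p-values, q-values and effects on a natural log scale, here turned into folds.

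Of 14307 entries, 146 that repeat another were left out, 22 symbols stored as dates were restored, and 14106 of 14161 IDs had positions in GENCODE M21. With no further scaling, limma 3.58.1 (R 4.3.3, trend and robust variance) was fitted to log2(value + 1) over all 14 libraries with 1 mean per group and no covariate, for genes with at least 1 in at least 2 of the 9 GX libraries; the contrast was GX MRL5 minus GX DMSO, two-sided. Standard errors are those of limma. The procedure was tested on simulated data. Lists and members were chosen with earlier results of these data known, so the counts of members describe the lists and do not test them.

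Named genes were the 12 higher and 8 lower of smallest p, the 8 higher and 6 lower of widest gap (mean of at least 10), up to 4 members per list with an unadjusted p under 0.05, those with an authors' q under 0.1, the 10 farthest genes of the library that stood apart, sodium channel genes and cell markers, predicted genes skipped. Agt, Atp2b3, Bambi, Cxcl1, Gata4, Hp, Icam1, Il1r1, Il6ra, Inhbb, Serpina3n, Sgk1, Smad9 and Thbs1, outside these rules, were chosen after their values were seen. Some results are not reported here. Promoter windows were found for 8 of 10 genes looked up.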

Additional observations from a re-analysis of the deposited data

Results flagged for a closer look

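Within a group of mice a result was marked when the gap between the most extreme library and its nearest neighbour took an unusually large share of the group's range (Dixon's ratio at the 95% critical value), a mark that chance gives to about 1 in 20 groups. It was computed on log2 values for 190 groups of 95 named genes, of which 12 were marked, and for 96 groups of list means, of which 11 were marked. The share of gene groups marked lay near that rate. That of list means lay above it, but lists share members and libraries and are not independent.

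GX MRL5 3 was the marked library for 8 of the 12 genes. Of these, Otud1, Ccn1 and Dnajb1 had been named because that library lay farthest from the others, so the tally is partly set by that choice. It was high for Otud1 (ratio 0.886), Ccn1 (0.874), Ifi205 (0.852), Dnajb1 (0.789), Gadd45a (0.748), Tiparp (0.747) and Junb (0.736), and low for Zfp458 (0.755). Gadd45a, a growth arrest gene, had 180, 189, 362, 195 and 215 in GX MRL5, against 141, 107, 87.6 and 229 in GX DMSO, and Junb, an AP-1 subunit, had 305, 412, 1281, 365 and 275 in GX MRL5, against 291, 233, 204 and 246 in GX DMSO. Ifi205, an interferon-inducible gene, had 946, 982, 1368, 997 and 999 in GX MRL5, against 964, 782, 726 and 988 in GX DMSO, so that GX MRL5 3 alone stood clear of both groups. The same library was high in the list means of p53 targets (0.761), immediate early genes (0.751), polyamine genes (0.746), interleukin and STAT3 genes (0.744) and ventricular sarcomere genes (0.713).

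GX MRL5 1 was high for Mef2d (0.855) and Nkx2-5 (0.774), where the other 4 treated mice lay together below the vehicle mice or at their lower end. GX MRL5 4 was low in the mean of adrenergic and cAMP genes (0.878) and of glucocorticoid targets (0.778) and high in that of atrial markers (0.864).

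Among vehicle mice, GX DMSO 2 was low for Socs2 (0.911) and GX DMSO 1 for Pwwp3b (0.839). GX DMSO 3 was high in the list means of Schwann and neuronal markers (0.877) and of atrial markers (0.85), and GX DMSO 4 in that of a set of short transcripts (0.846).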

How the results depend on the processing

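Results were recomputed under 22 alternatives, each with 1 choice changed except 3 that changed a pair (the covariates of library set and index, and the 2 added settings below). The count of genes that passed the adjusted test was 0 in each except without GX DMSO 1, where it was 2, so the range over single libraries left out was 0 to 2. At an unadjusted p under 0.05, leaving out each GX library in turn gave 282 to 635 higher and 161 to 383 lower genes, the largest counts without GX MRL5 1, and 155 to 418 genes above and 92 to 273 below without overlap, where fewer libraries make a gap easier by construction. Within set 148 there were 252 higher genes, and 155 above and 127 below without overlap. With equal column sums there were 90 lower genes, and 22 below without overlap, and the median of all genes moved to 0.034. Leaving out GX MRL5 1 and GX DMSO 1 together, chosen after seeing the data, gave 501 higher and 316 lower genes; leaving out GX MRL5 3 with only GX libraries in the fit, also chosen then, gave 338 and 162. Of 95 named gene results 93 kept their direction in every planned setting. Most of these genes were named for a small p or a wide gap in this same contrast. A kept direction is therefore largely set by that choice and is no sign of stability. Over single libraries left out, the log2 fold change of Otud1 ranged from -0.35 to 0.94 and that of Ccn1 from -0.033 to 0.91, both negative without GX MRL5 3. The causes were not tested beyond the construction named. No paired analysis was possible because no label pairs mice across groups and the replicate numbers were given in accession order. Depth is unknown, so low values, such as those of Il1b and Atp2b3, carry no counting error here.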

Other observations

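Values of other named genes are given without explanation. Interferon-inducible genes had 22 of 38 members with a positive fold change and a median of 0.017, from -0.035 without GX DMSO 1 to 0.11 without GX DMSO 3; Ifi204 was at 0.45 (SE 0.2) and Ifi205 at 0.29 (SE 0.129). Hypoxia targets had 16 of 24 positive with a median of 0.030, from -0.010 without GX MRL5 3 to 0.090 without GX DMSO 2. Among them Ndrg1, a stress-responsive gene, had 146, 166, 156, 168 and 158 in GX MRL5, against 133, 119.8, 129.8 and 137 in GX DMSO, with no overlap (log2 fold change 0.28, SE 0.112), and Hif1a, the oxygen-regulated transcription factor, had 380, 528, 591, 506 and 494 in GX MRL5, against 404, 424, 405 and 428 in GX DMSO (log2 fold change 0.25, SE 0.115). For Hif1a, GX MRL5 1 lay below all vehicle mice and the other 4 treated mice above them. The death receptor Fas had 417, 471, 489, 355 and 441 in GX MRL5, against 323, 342, 365 and 399 in GX DMSO, a log2 fold change of 0.28 (SE 0.116), and Xbp1, a factor of the unfolded protein response, one of 0.18 (SE 0.0771).

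Polyamine genes had 9 of 12 positive (median 0.11, from 0.039 without GX DMSO 4 to 0.13 without GX MRL5 5), with spermidine synthase, Srm, at 0.30 (SE 0.133) and the antizyme inhibitor Azin1 at 0.42 (SE 0.179), and at 0.19 and 0.26 without GX MRL5 3. Vamp2, a vesicle fusion protein, was lower, with 413, 393, 336, 407 and 387 in GX MRL5, against 446, 411, 458 and 444 in GX DMSO, a log2 fold change of -0.19 (SE 0.079); GX MRL5 1 and GX DMSO 2 were nearly equal. Cpne5, a copine, had low values of 0.485, 0, 3.61, 1.25 and 0.172 in GX MRL5, against 4.79, 2.43, 38.2 and 3.17 in GX DMSO, a log2 fold change of -2.08 (SE 0.855) and of -1.29 without GX DMSO 3. GX DMSO 3 was highest for Cpne5 by far, the library that also had the highest Myl7.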
